A study of Mus musculus with 6 samples.

Results

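The genes described here encode 10 transcription and chromatin factors of blood progenitors: Runx1, Runx2, Runx3 and their partner Cbfb, the ETS factors Erg, Fli1 and Etv6, Myb, Sox4 and the polycomb gene Bmi1. They were picked by gene symbol, with earlier results of these data known, and all 10 had a row among the 15035 rows of the deposited table. Their RNA was measured by RNA-seq in cultured mouse leukemia cells that grew from BALB/c bone marrow that expressed, from retroviruses, mutant CEBPA, a myeloid transcription factor, and mutant CSF3R, the G-CSF receptor. GSK-LSD1 libraries (n = 3) came from cells kept for 48 h with 4 nM of this inhibitor of the histone demethylase LSD1, and DMSO libraries (n = 3) from cells kept for the same time with the solvent. Both groups therefore carried both mutant genes. Nothing in the labels tells separate cultures from repeat libraries, or a clone from a mixed culture, and the p-values below therefore rest on library-to-library spread that may be technical.

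RUNX proteins bind DNA as a pair with CBFB, which does not bind DNA itself but raises the affinity of its partner. RUNX1, ERG and FLI1 occupy shared enhancers in blood stem and progenitor cells together with GATA2, TAL1, LYL1 and LMO2, a group often called the heptad. MYB keeps immature blood cells dividing and is lowered as they mature. SOX4 is a high-mobility-group factor that C/EBPα represses in mouse progenitors, and BMI1 is a subunit of the repressive complex PRC1, best known for silencing the Ink4a/Arf locus Cdkn2a.

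The regulatory sequence of the Runx genes sets them apart from the other members, and is shown because it is shared by paralogs whose levels differed widely. Windows from 250 bases before to 50 bases after an annotated start were read from RefSeq (GRCm38.p6) for 9 of the 10 genes, 13 windows in all, and Fli1 had none. On the gene's strand, 5′ to 3′, the most upstream window of each Runx gene held a pair of ACCACA hexamers, the reverse complement of the RUNX core TGTGGT, printed in capitals with 2 bases between them.
Runx1 chr16:92826025-92826054, minus strand: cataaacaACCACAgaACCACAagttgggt
Runx2 chr17:44814583-44814612, minus strand: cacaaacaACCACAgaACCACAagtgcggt
Runx3 chr4:135120503-135120532, plus strand: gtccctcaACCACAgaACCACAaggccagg
The pair lay after the annotated start in Runx1 and Runx2 and before it in Runx3. Single TGTGGT cores, on either strand, were found in 16.8% of all 32851 windows of this length. A pair on 1 strand with this spacing was in 7 windows, or 0.0213%, these 3 among them. The spacing counted is the one that the 3 Runx windows show, so their place among the 7 is not a separate result. Of the 13 windows of the progenitor factors, 3 held a TGTGGT core, and all were Runx windows.

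Runx1 was also the only member with the core AATCAC of GFI1, a DNA-binding repressor that recruits LSD1, in its windows. These sequences are shown because GFI1 is a partner that brings the drug's target to DNA. The core was present once at each of the 2 annotated starts of Runx1, on the opposite strand, so that GTGATT stands in capitals below.
Runx1, distal start, chr16:92826125-92826154, minus strand: cacttaagtcacGTGATTggcaagagccaa
Runx1, proximal start, chr16:92697406-92697435, minus strand: ccggaaaggcctGTGATTggccgtcggtct
In both, the last capitals and the 2 bases after them spell ATTGG, the reverse complement of CCAAT, so the match overlaps another common promoter motif. AATCAC was in 10.4% of all windows. Other hexamers were searched on both strands. CGGAAG, 1 longer form of the ETS site (16.9% of all windows), was in none of the 13. The shorter ETS core GGAA was not counted, and the proximal Runx1 sequence above holds it, so ETS sites are not absent from these windows. The MYB core TAACNG (23.3%) was in windows of Runx1 and Erg, and the SOX core AACAAT (10.7%) was in 1 window of Erg. A match describes letters and not binding, and the table gives 1 value per gene symbol, so RNA from the distal and proximal starts of Runx1 and Runx3 is not separated in any value below.

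After 48 h of GSK-LSD1, 7 of the 10 genes were higher (Sox4, Runx2, Fli1, Erg, Etv6, Bmi1 and Cbfb), Myb was lower, and Runx1 and Runx3 did not pass the test. The largest rise was that of Sox4, 1.73-fold, and the other rises lay between 1.11-fold and 1.5-fold. The test was limma on log2(value + 1) with Benjamini-Hochberg adjustment over the 11588 genes with a value of at least 10 in at least 3 libraries, and a gene was called at an adjusted p under 0.05. All 10 genes passed that filter. By the same rule, 20.6% of all tested genes were called higher, 20.5% lower and 41.1% in either direction, and the median log2 fold change was 0.19 over the 10 genes and -0.01 over all tested genes. The 3 GSK-LSD1 values did not overlap the 3 DMSO values for the 8 called genes, 7 above and 1 below, while 24.7% of all tested genes lay wholly above, 24.8% wholly below and 49.5% either. In the median tested gene, the size of the log2 fold change in either direction was 0.17, and over the 10 genes it was 0.21. Without GSK-LSD1 replicate 3 the count of higher genes was 4 in place of 7, as it was without the mean-variance trend, and the calls lost were those of Runx2, Cbfb and Bmi1 in both cases.

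**Figure D1:**
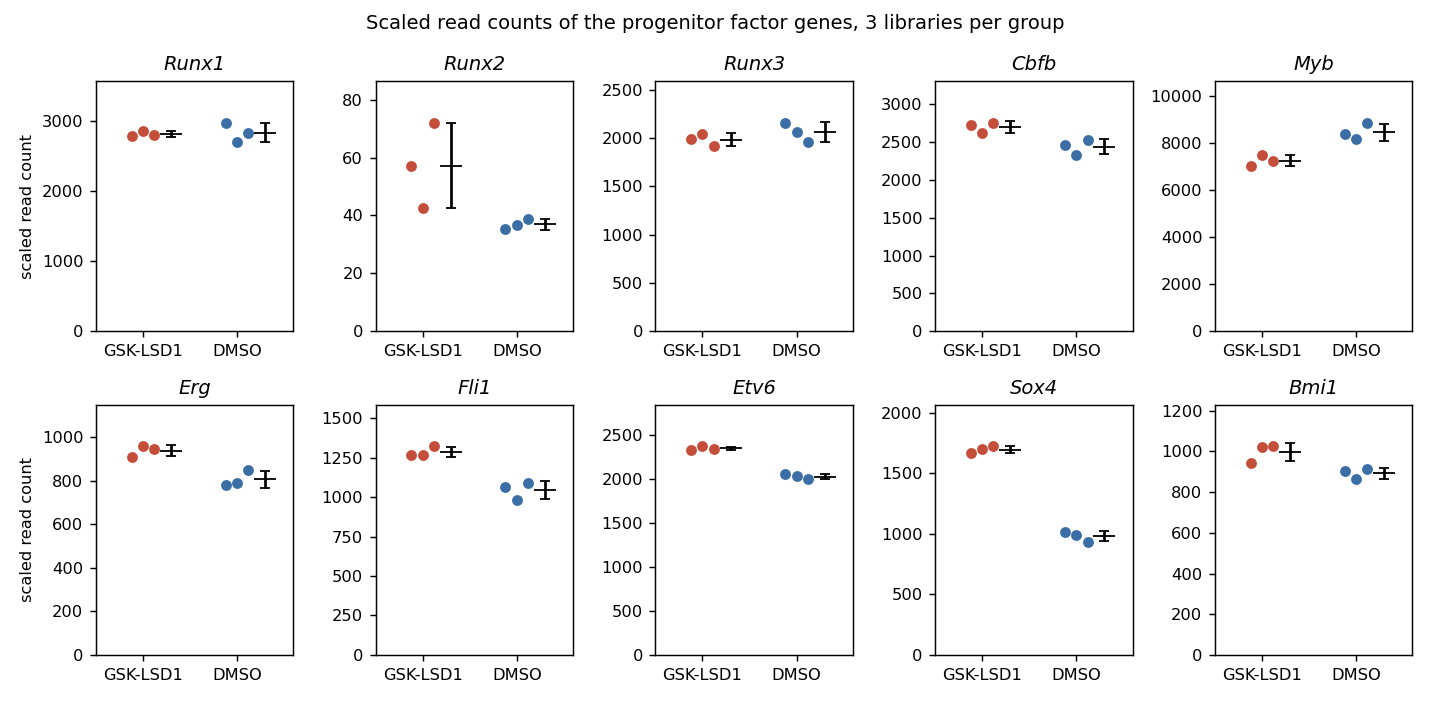
Scaled read counts (vertical axis, from 0) of the 10 genes in the 3 GSK-LSD1 libraries (left, red) and the 3 DMSO libraries (right, blue), with the group mean and SD in black. Sox4 stands at 1668 to 1721 with GSK-LSD1 and 935 to 1012 with DMSO, Myb is the 1 gene whose GSK-LSD1 values all lie below the DMSO values, and those of Runx1 and Runx3 overlap.

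The libraries themselves were of even size. With its smallest value read as 1 count, each library held between 9572638 and 10199533 reads. Between libraries of 1 group the reads differed by more than counting noise, with a chi-square per degree of freedom of 1.57 to 1.86 for GSK-LSD1 and 2.52 to 3.51 for DMSO, so no pair agreed within counting noise, which does not show that they were separate cultures. For 8 of the 10 genes the spread relative to the mean was larger with DMSO than with GSK-LSD1. Every member but Runx2 had between 795 and 8917 reads in a library, for which counting error alone gives 1.06% to 3.55%. Genes of the neutrophil lineage were present, with Mpo, the myeloperoxidase gene, at 8952 ± 164 with GSK-LSD1 and 7390.3 ± 377 with DMSO (SD, n = 3 each). The summed level of 10 mast cell and basophil markers lay between 37693 and 39115 with GSK-LSD1 and between 29332 and 31439 with DMSO, against 17278 to 17837 and 12478 to 13467 for the neutrophil list in GSK-LSD1 and DMSO libraries. More than any other gene of its list, Cpa3, a mast cell protease gene, made up the mast cell and basophil sum, at 23028 ± 597 with GSK-LSD1 and 14320 ± 982 with DMSO, while the receptor gene Fcer1a was 4518 ± 265 and 5758 ± 149 in the GSK-LSD1 and DMSO groups and fell, as did Hdc. Of the mast cell and basophil list 5 rose and 2 fell, and of the 10 tested neutrophil genes 5 rose and 5 fell. Both sums were higher in GSK-LSD1 libraries, and their part in the results for the progenitor factors was not tested. Of 6 tested monocyte markers 5 rose, or 83.3%, with a summed level of the list of 1038 to 1161 with GSK-LSD1 and 536 to 596 with DMSO. All 7 tested erythroid markers fell, to a sum of 47.7 to 71.4 with GSK-LSD1 against 282 to 346 with DMSO. The 4 T and NK cell markers in the table summed to 130.4 to 143 with GSK-LSD1 and 178 to 193 with DMSO, the 5 B cell markers to 2.07 to 6.12 with GSK-LSD1 and 3.96 to 5.86 with DMSO, and the 2 stromal markers to 333 to 357 with GSK-LSD1 and 249.7 to 254 with DMSO. Their part was not tested either. In bulk RNA, a change in the share of a cell type and a change in RNA per cell cannot be told apart. Kdm1a, which encodes LSD1, was 1227 ± 16.3 with GSK-LSD1 and 1257 ± 59.6 with DMSO (log2 fold change -0.03, limma adjusted p = 0.631).

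Among the DNA-binding RUNX genes, neither of the abundant ones passed the test. Runx1, which is required for blood stem cells to arise in the embryo (chromosome 16, 92601466 to 92826149, minus strand, GRCm38), had values of 2788, 2858 and 2790.3 with GSK-LSD1, against 2971, 2703 and 2818 with DMSO. The GSK-LSD1 values fell inside the DMSO range. The log2 fold change was -0.01 with a 95% interval of -0.10 to 0.08, that is a fold between 0.932 and 1.06 (limma adjusted p = 0.898). Its sign turned to 0.02 with quantile scaling and 0.03 without DMSO replicate 1, with no call in any alternative. Runx3, a RUNX gene best known from T cell and dendritic cell development (chromosome 4, 135120652 to 135177990, plus strand), had 1987, 2044 and 1915 with GSK-LSD1, against 2157, 2066 and 1956 with DMSO. The 2 groups overlapped, and the 95% interval of the log2 fold change, -0.15 to 0.04, held 0 (limma adjusted p = 0.388).

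Runx2, the master factor of bone-forming cells (chromosome 17, 44495987 to 44814797, minus strand), was scarce. It had 57.1, 42.4 and 72.0 with GSK-LSD1, against 35.2, 36.7 and 38.8 with DMSO. GSK-LSD1 replicate 2 stood closest to the DMSO values. The 3 GSK-LSD1 libraries differed by 25.9% of their mean (SD), where DMSO libraries differed by 5.0%. Counting error alone gives 11.6% to 15.6% for a GSK-LSD1 library and 16.0% to 16.7% for a DMSO library. The 5.0% lies below it and does not show that the DMSO level was more even. In reads, the lowest GSK-LSD1 library held 41 and the highest DMSO library 39, with 95% Poisson intervals of 29.4 to 55.6 and 27.7 to 53.3 that cover counting error only. Runx2 rose 1.5-fold (95% interval 1.14 to 1.98, limma adjusted p = 0.014), but its call was lost in 3 alternatives. The log2 fold change, 0.59 as reported, was 0.35 with quantile scaling (limma adjusted p = 0.152), 0.41 without GSK-LSD1 replicate 3 (adjusted p = 0.148) and the same 0.59 without the trend (adjusted p = 0.0526). Exons of Runx2os1 on the other strand overlap 519 bases of its exons, 5.87% of their length, and since the strand setting of the counting is not given, the 2 cannot be told apart there.

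Cbfb (chromosome 8, 105170674 to 105217989, plus strand) had 2732, 2616 and 2757 with GSK-LSD1, against 2462, 2331 and 2531 with DMSO. All GSK-LSD1 values lay above all DMSO values, but DMSO replicate 3 and GSK-LSD1 replicate 2 were close. Cbfb rose 1.11-fold (log2 fold change 0.15, SE 0.0464, limma adjusted p = 0.0107). The call was lost without DMSO replicate 2 (adjusted p = 0.069), without GSK-LSD1 replicate 3 (0.0693) and without the trend (0.0891).

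Set per exon length, so that genes can be compared, Runx3 gave the largest part of the RUNX signal. The scaled count of each gene was divided by the length of all its exons in GENCODE M21, and Runx3 held 62.2% ± 0.695 of the sum of the 3 genes with GSK-LSD1 and 63.2% ± 1.12 with DMSO (SD, n = 3 each). Runx1 held 36.7% ± 0.434 with GSK-LSD1 and 36.2% ± 1.10 with DMSO, and Runx2 held 1.02% ± 0.285 with GSK-LSD1 and 0.642% ± 0.0573 with DMSO. With the length of the longest coding transcript in place of all exons, the share of Runx1 was 48.0% with GSK-LSD1 and 47.4% with DMSO, so these levels depend on which isoforms are present. The level of Cbfb per exon length was 122.0% ± 6.0 of the RUNX sum with GSK-LSD1 and 107.8% ± 6.65 with DMSO, a ratio added after the values were seen. The groups overlapped in this ratio, with 115.4% in GSK-LSD1 replicate 2 and 115.5% in DMSO replicate 3 (exact permutation p = 0.2). In 5 such comparisons by exact two-sided permutation tests, 3 against 3 libraries cannot give a p below 0.1, so none could pass the threshold. The share of Runx2 had an exact permutation p = 0.1, and the adjusted p-values were between 0.3333 and 0.4.

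Among partners of the RUNX proteins more genes rose than fell. Of 21 tested cofactor genes 9 rose, 4 fell and 8 did not pass, with a median log2 fold change of 0.15. These are 42.9% higher and 19.0% lower, beside 20.6% and 20.5% of all tested genes. Tle4 and Tle3, corepressors of the Groucho family that bind the end of RUNX proteins, rose 1.45-fold and 1.22-fold (Tle3 was named after its values were seen), while their relative Tle1 fell by 0.78 on the log2 scale, to 409 ± 17.2 with GSK-LSD1 against 703 ± 33.6 with DMSO. Aes, a short member of the same family, fell by 0.17. The acetyltransferase gene Crebbp, whose libraries overlapped between groups, and the histone methyltransferase gene Kmt2a rose 1.31-fold and 1.33-fold, and Smurf2, a ubiquitin ligase gene, 1.3-fold. Suv39h1 and Hdac1 fell by 0.17 and 0.14. Of 13 tested genes known as RUNX targets, 6 rose, 4 fell and 3 did not pass, with a median of 0.02, or 46.2% higher and 30.8% lower beside the same 20.6% and 20.5%. Prkcq, a kinase gene lowered in people with RUNX1 mutations, rose to 1158 ± 7.49 with GSK-LSD1, against 771 ± 23.0 with DMSO. Csf1r, the receptor gene of macrophage colony-stimulating factor, was 45.0 ± 12.2 with GSK-LSD1 and 11.8 ± 4.17 with DMSO, and Gfi1 and Mpo also rose. Elane, the elastase gene, Pf4, Ccnd3 and Itga2b were lower, at -0.92, -0.44, -0.41 and -0.21 on the log2 scale.

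The 3 ETS members rose together by similar amounts. Fli1, a factor of megakaryocyte and endothelial development (chromosome 9, 32422204 to 32542861, minus strand), had 1268, 1267 and 1322 with GSK-LSD1, against 1063, 983 and 1091 with DMSO. The groups were well apart, and Fli1 rose 1.23-fold (95% interval 1.14 to 1.33, limma adjusted p = 2.22e-05). Erg, a close paralog that stem cells need for self-renewal (chromosome 16, 95359169 to 95586593, minus strand), had 908, 956 and 943 with GSK-LSD1, against 779, 788 and 850.1 with DMSO. DMSO replicate 3 was the highest of its group but below every GSK-LSD1 library. Erg rose 1.16-fold (95% interval 1.07 to 1.26, limma adjusted p = 0.00216). Etv6, an ETS repressor that keeps stem cells in adult marrow (chromosome 6, 134035700 to 134270158, plus strand), had 2335, 2371 and 2345 with GSK-LSD1, against 2056, 2036 and 1996 with DMSO. These were the tightest groups of the 10 genes, with SDs of 0.797% of the mean for GSK-LSD1 and 1.5% for DMSO. Counting error alone gives 2.04% to 2.09% for a GSK-LSD1 library of Etv6 and 2.18% to 2.23% for a DMSO library. Both SDs lie below it and do not show a more exact measurement. Etv6 rose 1.16-fold (log2 fold change 0.21, SE 0.0454, limma adjusted p = 0.000256). The calls of the 3 genes held in all 15 alternatives, with adjusted p up to 0.0314 for Erg, 0.0157 for Etv6 and 0.0123 for Fli1. Per exon length, Erg held 42.3% ± 0.772 of the sum of Erg and Fli1 with GSK-LSD1 and 43.7% ± 1.12 with DMSO (exact permutation p = 0.2). The groups overlapped, with 43.2% in GSK-LSD1 replicate 2 and 42.4% in DMSO replicate 1. With 3 against 3 libraries this test cannot give a p below 0.1, so it cannot decide whether the share differed.

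Each of these paralogs lies beside another ETS gene on its chromosome, Fli1 93.4 kb from Ets1 and Erg 115.5 kb from Ets2. Ets1 was 266 ± 13.7 with GSK-LSD1 and 277 ± 26.5 with DMSO and did not pass the test (log2 fold change -0.06, limma adjusted p = 0.638). Ets2 was 66.7 ± 5.91 with GSK-LSD1 and 50.6 ± 10 with DMSO and did not pass it either (0.40, adjusted p = 0.0563). Of the 14 other ETS genes tested, 2 rose, 4 fell and 8 did not pass, with a median of -0.06, and without DMSO replicate 1 the count that rose was 4. These are 14.3% higher and 28.6% lower, near the 20.6% and 20.5% of all tested genes. Elf4 and Spi1, which encodes PU.1, rose 1.19-fold and 1.17-fold. Etv4, a target of receptor and ERK signalling in many tissues, fell most, to 59.3 ± 7.72 with GSK-LSD1 against 157 ± 12.4 with DMSO, and Elk3, Erf and Elf1 fell by 0.34, 0.24 and 0.15 on the log2 scale.

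The other members of the heptad did not follow Erg and Fli1 as 1 block. Gata2, which is needed by stem cells, mast cells and basophils, rose 1.11-fold to 6415 ± 121 with GSK-LSD1, against 5786 ± 106 with DMSO. Lmo2, whose protein joins TAL1 and GATA factors in 1 complex, fell by 0.72 on the log2 scale and Lyl1 by 0.45, and Tal1 was not past the threshold (0.05, limma adjusted p = 0.483). With Runx1, the 7 genes thus held 3 that rose, 2 that fell and 2 that did not pass.

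Since Erg, Fli1 and Runx1 are active in megakaryocytes and endothelium, markers of those cells were read beside them. Of 11 megakaryocyte markers 10 were in the table and 5 tested, of which 2 rose and 2 fell. These are 40.0% in each direction, beside 20.6% higher and 20.5% lower among all tested genes. The summed level of the 10 was 3225 to 3457 with GSK-LSD1 and 2600 to 2747 with DMSO. Most of that sum was integrin RNA: Itgb3 rose to 1571 ± 99.4 with GSK-LSD1 against 657 ± 15 with DMSO, and Itga2b fell to 1630.1 ± 24.3 with GSK-LSD1 against 1888 ± 81.1 with DMSO. Of the platelet glycoprotein genes, Gp1ba rose to 57.9 ± 7.11 with GSK-LSD1 against 31.3 ± 4.80 with DMSO (limma adjusted p = 0.000371), while Gp1bb, Gp5, Gp6 and Gp9 were below the filter, with group means of at most 2.03 with GSK-LSD1 and 6.26 with DMSO. The platelet chemokine gene Pf4 fell to 43.7 ± 2.89 with GSK-LSD1 against 59.6 ± 6.97 with DMSO, and Ppbp was 29.8 ± 8.56 with GSK-LSD1 and 29.3 ± 2.55 with DMSO, not past the threshold. Of 6 endothelial markers only Pecam1, which leukocytes also express, was tested, and it rose 1.18-fold; the list summed to 4338 to 4449 with GSK-LSD1 and 3543 to 4010 with DMSO, and von Willebrand factor, Vwf, was 5.38 ± 1.14 and 9.53 ± 1.95 in the GSK-LSD1 and DMSO groups. The part of these cells in the ETS results was not tested.

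**Figure D2:**
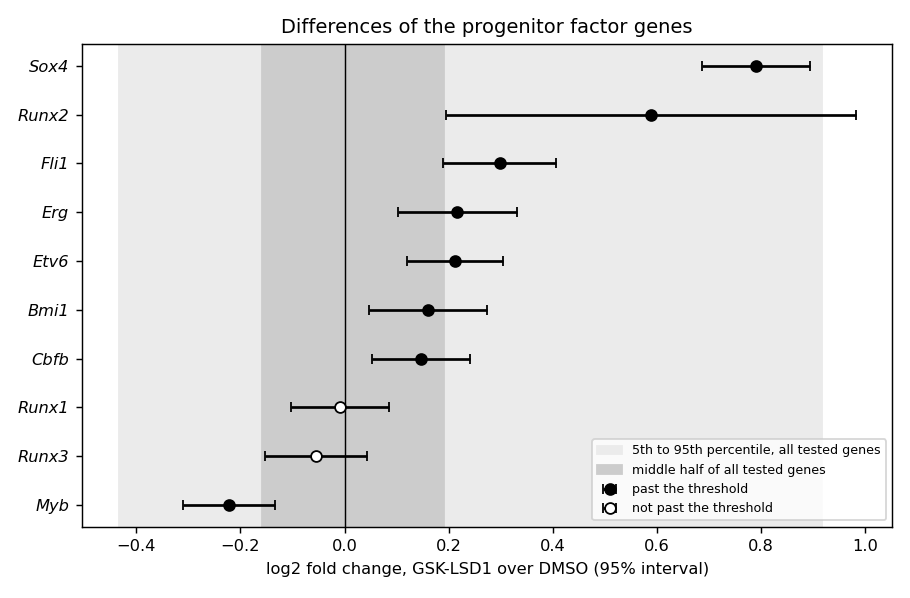
Log2 fold change, GSK-LSD1 over DMSO (horizontal axis), of the 10 genes with 95% intervals from limma (filled points past the threshold, open points not), over the range between the quartiles (dark band) and the 5th to 95th percentile (light band, -0.43 to 0.92) of all tested genes. Sox4 and Runx2 lie farthest right at 0.79 and 0.59, Myb farthest left at -0.22, and every point lies inside the light band.

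Myb was the 1 gene of the 10 that fell. It lies on chromosome 10 (21124935 to 21160984, minus strand) and had 7029, 7513 and 7255 with GSK-LSD1, against 8389, 8164 and 8876 with DMSO. No GSK-LSD1 value reached the lowest DMSO value. Myb fell by 0.22 on the log2 scale, to 0.857 of its DMSO level (95% interval of that fold 0.806 to 0.912, limma adjusted p = 9.7e-05). The call held in all 15 alternatives, with the highest limma adjusted p, 0.029, without the trend. Per exon length it remained the most abundant of the 10 genes in both groups, at 813 ± 27.1 with GSK-LSD1 and 949 ± 40.8 with DMSO. Hbs1l, its neighbour upstream, fell by the same 0.22 (784 ± 18.8 with GSK-LSD1, 915 ± 33.0 with DMSO, limma adjusted p = 0.00163), while Ahi1 downstream, at -0.15, was not past the threshold (adjusted p = 0.243). Exons of the antisense RNA Gm26577 cover 559 bases of Myb exons, 6.26% of their length.

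Of 14 tested relatives and partners of MYB, 5 rose, 4 fell and 5 did not pass, with a median of 0.21, or 35.7% higher and 28.6% lower beside 20.6% and 20.5% of all tested genes. Mybl2, the cell-cycle paralog, fell by 0.48 on the log2 scale, to 801 ± 35 with GSK-LSD1 against 1122 ± 49.1 with DMSO, and Mybl1, the germ-cell paralog, named after its values were seen, was 46.0 ± 3.23 with GSK-LSD1 and 38.5 ± 3.93 with DMSO, not past the threshold. Ppid, Men1 and Mybbp1a fell by 0.34, 0.28 and 0.28. Kmt2a and Crebbp, listed above with the RUNX cofactors, rose, as did Pias3 (1.32-fold) and Hipk1 (1.27-fold). Genes known as MYB targets were mostly lower: of 18 tested, 10 fell, 3 rose and 5 did not pass, against 20.5% lower and 20.6% higher among all tested genes, with a median of -0.18. Lmo2, Prtn3 and Elane led the falls with Bcl2 and Ctsg, both at -0.47. Prtn3, Elane and Ctsg are granule protease genes that also stand in the neutrophil list. Bcl2, the survival gene, was 169 ± 21 with GSK-LSD1 and 234 ± 13.2 with DMSO, and Myc, named like Ctsg after its values were seen, fell by 0.22. The 3 that rose were Cd34, Gstm1 and Mpo, led by Cd34, a surface marker of progenitors, at 1685 ± 4.38 with GSK-LSD1 and 299.4 ± 28.5 with DMSO.

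Sox4 (chromosome 13, 28948919 to 28953713, minus strand), a gene with a single exon, showed the largest and firmest difference. It had 1668, 1696 and 1721 with GSK-LSD1, against 1012, 993 and 935 with DMSO. The lowest GSK-LSD1 library was far above the highest DMSO library. Sox4 rose 1.73-fold (log2 fold change 0.79, SE 0.051, 95% interval of the fold 1.61 to 1.86, limma adjusted p = 2.77e-15). Its log2 fold change stayed between 0.76 and 0.81 in all 15 alternatives, with the highest limma adjusted p, 0.000218, without the trend. Per exon length it stood at 353.5 ± 5.50 with GSK-LSD1, the sixth of the 10 genes, and at 204 ± 8.37 with DMSO, the ninth. Exons of the long noncoding RNA Gm26735 on the other strand overlap 2616 bases of Sox4, 54.6% of its exon length, and without the strand setting of the counting the RNA of Gm26735, which was not analysed here, cannot be told apart from that of Sox4 in this part. The nearest tested genes, Cdkal1 at 238 kb and Mrs2 at 3930.0 kb, were not past the threshold, with log2 fold changes of 0.02 and -0.06.

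**Figure D3:**
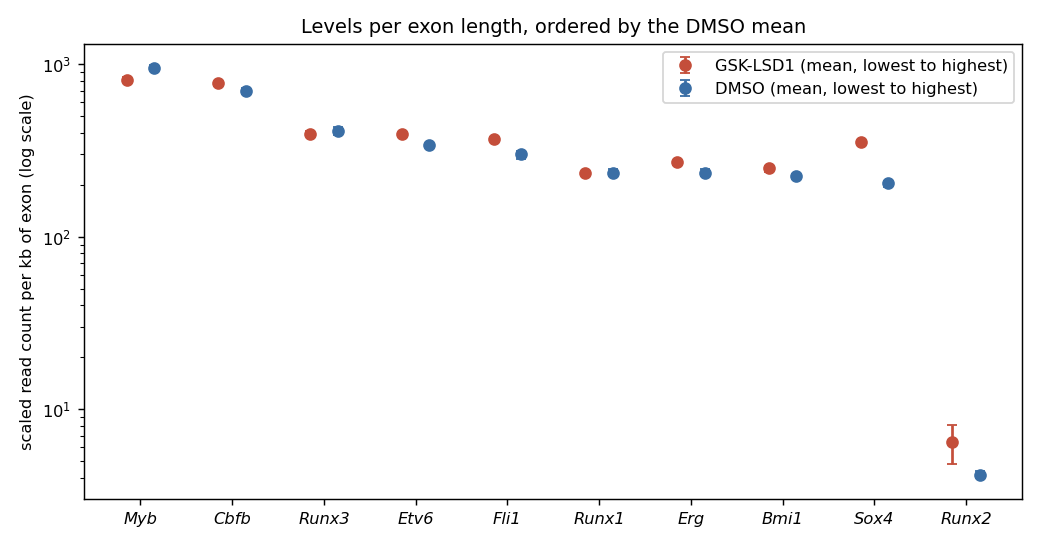
Scaled read count per kb of exon (vertical axis, log scale) of the 10 genes, ordered by their DMSO mean, in GSK-LSD1 (red) and DMSO (blue) libraries, with bars from the lowest to the highest library. Myb and Cbfb lead in both groups, Runx2 lies far below the rest at 6.47 with GSK-LSD1 and 4.17 with DMSO, and Sox4 shows the widest gap between the groups among the other 9 genes.

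The upstream sequences of Sox4 and Myb, the member that rose most and the one that fell, are shown with CpG dinucleotides in capitals because their base composition differs.
Sox4 chr13:28953700-28953949, minus strand: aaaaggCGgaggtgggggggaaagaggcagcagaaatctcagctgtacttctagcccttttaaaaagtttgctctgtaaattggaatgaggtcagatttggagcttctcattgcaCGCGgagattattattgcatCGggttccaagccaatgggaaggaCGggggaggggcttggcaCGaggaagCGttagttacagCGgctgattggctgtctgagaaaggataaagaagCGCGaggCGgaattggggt
Myb chr10:21160985-21161234, minus strand: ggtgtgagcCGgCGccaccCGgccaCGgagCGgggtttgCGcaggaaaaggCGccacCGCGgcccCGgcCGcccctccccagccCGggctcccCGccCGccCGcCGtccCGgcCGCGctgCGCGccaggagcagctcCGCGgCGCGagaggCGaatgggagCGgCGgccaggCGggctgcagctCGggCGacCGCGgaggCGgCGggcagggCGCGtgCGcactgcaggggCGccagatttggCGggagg
The 250 bases before the annotated start held 11 CpG dinucleotides and 50.8% G or C in Sox4, and 40 and 81.2% in Myb, where the median of all windows was 6 CpG dinucleotides and 52.4%. None of the 5 hexamers searched was found in either gene's window, which does not show that shorter ETS sites were absent.

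Other SOX genes were scarce. Of 15 listed, 6 were in the table and 2 were tested. Sox6, whose mean over all libraries was below 20, was 20.9 ± 4.66 with GSK-LSD1 and 8.88 ± 1.90 with DMSO and rose (limma adjusted p = 0.00397), while Sox12, a close relative of Sox4, was not past the threshold at 228.5 ± 37.0 and 219.5 ± 14.9 in the GSK-LSD1 and DMSO groups. Of 4 tested genes known as SOX4 targets, 1 rose and 3 did not pass. The riser was Tubb3, a neuronal tubulin gene activated by SOX4 and SOX11 in neurons, at 681 ± 34.8 with GSK-LSD1 and 63.5 ± 5.12 with DMSO. Ezh2, Dicer1 and Fzd5 had log2 fold changes of 0.04, 0.03 and 0.06.

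Bmi1 (chromosome 2, 18677018 to 18686629, plus strand) had 946, 1024 and 1025 with GSK-LSD1, against 903, 863 and 912 with DMSO. The groups did not overlap, but GSK-LSD1 replicate 1 was only slightly above DMSO replicate 3. Bmi1 rose 1.12-fold (log2 fold change 0.16, SE 0.0554, limma adjusted p = 0.0191). The call was lost without DMSO replicate 2 (adjusted p = 0.0785), without GSK-LSD1 replicate 2 (0.0883) or 3 (0.0983), and without the trend (0.0763). Commd3, which ends 0.787 kb before Bmi1 on the same strand, rose to 859 ± 35.7 with GSK-LSD1 against 696 ± 21.2 with DMSO (log2 fold change 0.30, limma adjusted p = 6.13e-05). Pip4k2a, the nearest tested gene on the other side, rose too, by 0.25.

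Other PRC1 genes moved in both directions. Of 22 tested, 4 rose, 5 fell and 13 did not pass, close to the shares among all genes, with a median of -0.00356, and without GSK-LSD1 replicate 2 the count that fell was 3. Rnf2, the catalytic ubiquitin ligase of the complex, rose 1.21-fold, the chromobox gene Cbx2 1.27-fold and Phc3 1.21-fold. Auts2, a subunit of a variant complex linked to gene activation in the brain, was the gene that rose most, with 56.1 ± 1.28 in GSK-LSD1 libraries and 6.59 ± 2.10 in DMSO libraries. Pcgf1, Pcgf5 and Pcgf6, which take the place of BMI1 in variant complexes, fell by 0.37, 0.26 and 0.21 on the log2 scale, and Yaf2 by 0.25. Of the genes that BMI1 silences, 2 were tested and neither passed: Cdkn2a was 61.9 ± 6.25 with GSK-LSD1 and 68.6 ± 14.2 with DMSO, and Cdkn2c was 426 ± 19.0 and 414 ± 11.7 in the GSK-LSD1 and DMSO groups.

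In the order of levels per exon length with GSK-LSD1, Myb was followed by Cbfb, Runx3, Etv6, Fli1, Sox4, Erg, Bmi1, Runx1 and Runx2. Neighbours in that order were apart in every library except Myb and Cbfb, and Runx3 and Etv6, whose ranges overlapped. With DMSO the order was Myb, Cbfb, Runx3, Etv6, Fli1, Runx1, Erg, Bmi1, Sox4 and Runx2, and the ranges of Runx1 and Erg, and of Erg and Bmi1, overlapped. With the length of the longest coding transcript, Runx1 moved up to the fourth place in both groups and Sox4 stood at the seventh with GSK-LSD1 and the ninth with DMSO. Of the 20 nearest tested neighbours of the 10 genes, 2 rose, 4 fell and 14 did not pass. Among all tested genes 20.6% were higher and 20.5% lower, so the neighbours were called no more often than other genes.

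**Figure D4:**
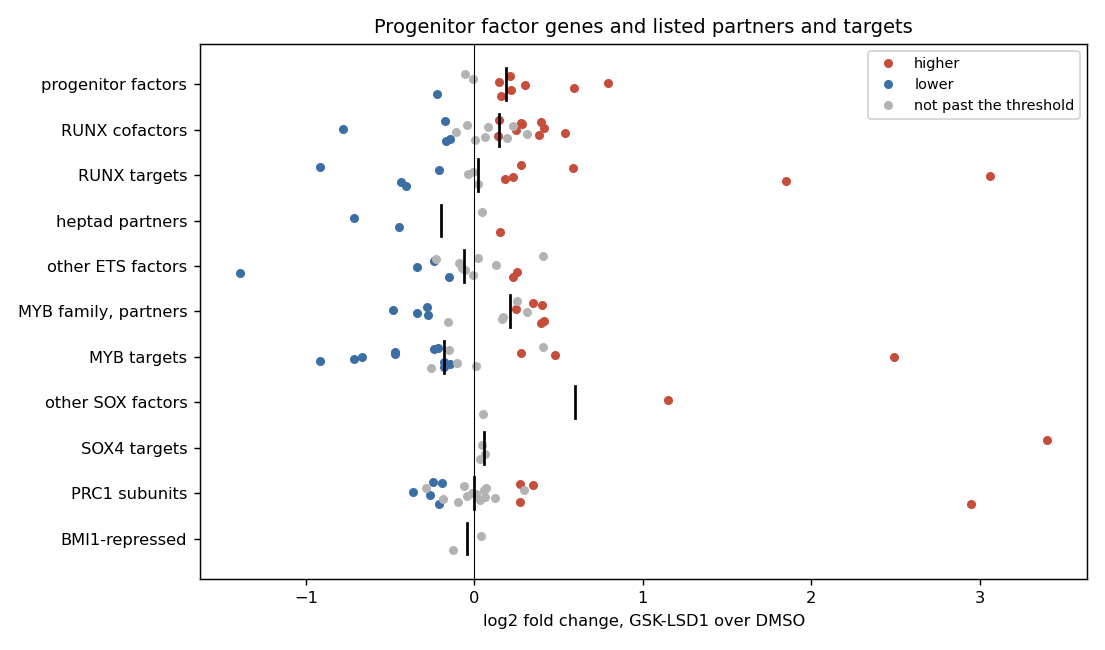
Log2 fold change, GSK-LSD1 over DMSO (horizontal axis), of each tested gene in the progenitor factor group and in lists of partners, relatives and targets (rows), in red if higher, blue if lower and grey if not past the threshold, with the list median as a black line. The progenitor factors have a median of 0.19, MYB targets one of -0.18, and single genes such as Tubb3 (3.40) and Gfi1 (3.06) lie far to the right.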

How the data were processed

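The deposited table holds a normalised signal for each gene symbol in each RNA-seq library of total RNA. From the values, they are read counts divided by 1 factor per library: each value is a whole multiple of the smallest value of its column. The submitters' processing notes list STAR, DESeq2, mm10 and GRCm38, with no role or version. How reads were counted, with which annotation and strand setting, is not given in the sources used here.

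Genes with a value of at least 10 in at least 3 libraries were tested (11588 of 15035 rows) by a two-sided limma test (3.58.1, R 4.3.3) with trend, on log2(value + 1), with Benjamini-Hochberg adjustment. Fold changes are on that scale and understate changes of low genes. The limma fit was tested on simulated data. edgeR 4.0.16 and DESeq2 1.42.0 were run as alternatives on the recovered whole reads; in DMSO replicates 2 and 3 the step lay within 1% of 1, so recovery there rests on the full decimals. Exact permutation tests used SciPy 1.17.1. Exon lengths, coordinates and overlaps come from GENCODE M21 (GRCm38), promoter windows from RefSeq.

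The 10 genes and the lists were chosen with earlier results of these data known, and some lists share genes. From each list of partners and targets up to 4 genes per direction past the threshold, by size and with a mean value of at least 20, were named; the rule also covers the marker lists, of which only some such genes are named; where others are named, their position, role or the whole of a short list was the reason.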

Additional observations from a re-analysis of the deposited data

How the results depend on the processing

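Besides the result reported, 15 alternatives were computed for each gene, 14 for Runx2, which the filter on a mean value of at least 50 leaves out. Sox4, Fli1, Etv6, Erg and Myb kept their direction and call in all of them. The count of higher genes among the 10 was 4 in place of 7 without the trend, and between 4 and 7 when single libraries were left out; Myb was the 1 lower gene throughout. The sign of Runx1, never called, turned to 0.0229 with quantile scaling and to 0.0269 without DMSO replicate 1, and single libraries left out gave -0.0412 to 0.0269. Without division by length the ratio of Cbfb to the RUNX sum differed by 6.12 points in place of 14.2. The longest coding transcript as length was chosen after seeing the data. DESeq2 called 1961 genes higher and 1862 lower over all tested genes, edgeR 2463 and 2321, and limma 2389 and 2373. Quantile scaling moved the median log2 fold change of all genes from -0.01 to -0.05.

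Counts within lists moved by over 1.5 times in few cases. Of the lists of partners and targets, lower RUNX cofactors were 1 in place of 4, lower ETS genes 2 in place of 4 and higher heptad partners 0 in place of 1 without the trend; higher ETS genes were 4 in place of 2 without DMSO replicate 1; lower PRC1 genes were 3 in place of 5 without GSK-LSD1 replicate 2 and 2 with DESeq2; and Sox6 drops out at a mean value of at least 50. Of the marker lists, lower megakaryocyte genes were 1 in place of 2 with no filter, with DESeq2 and without any single library except DMSO replicate 2, and higher ones 1 in place of 2 at a mean value of at least 50, where lower erythroid genes were 0 in place of 7. Higher stromal genes were 1 in place of 2 in 8 alternatives. Without the trend and with quantile scaling, lower monocyte genes were 1 in place of 0 and lower T and NK cell genes 2 in place of 1.

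With the replicate block, 7 of the 10 genes were higher and 1 lower, and over all genes 2345 were higher and 2316 lower. Libraries of the same number did not deviate together (correlations of deviations -0.0241, -0.0276 and -0.00771), so the numbers are taken as names only. Depth limits Runx2, with 36 to 74 reads in a library.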
